A study of Homo sapiens with 4 samples.

Results

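RNA recovered with nuclear SRP9 variant 2 was described by comparing 1 RNA immunoprecipitation (RIP) library with 1 whole-cell RNA library of the same experiment (the input), which are 2 of the 4 libraries of the series. Both came from MiaPaCa, an established human pancreatic cancer cell line, transfected with a plasmid for SRP9 variant 2 that carried a nuclear localisation signal and a triple FLAG tag. The plasmid also gave a green fluorescent reporter, acGFP1, and the cells were selected with Geneticin and sorted on that reporter, per the labels' protocols. The other libraries are the RIP and input of MiaPaCa cells made in the same way with SRP9 variant 1, and they are set beside those of variant 2. The input of variant 1 also serves to group IDs by abundance, to choose a set of IDs and as another denominator. The protein precipitated was thus the introduced, tagged one. A precipitation from cells without a tagged protein was not analysed here. With 1 library a side there is no replicate and no test, so each difference below is between libraries, not between conditions.

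SRP9 belongs to the signal recognition particle (SRP), the ribonucleoprotein that brings ribosomes making secreted and membrane proteins to the endoplasmic reticulum. With its partner SRP14 it forms a heterodimer on the Alu domain of 7SL, the RNA of the particle, and this end slows elongation of the nascent chain. The particle works in the cytoplasm, while several of its steps of assembly take place in the nucleus. According to the series' design text, the purpose was to examine what the SRP9 variants do in the nucleus through the RNA they bind. In a RIP, RNA is recovered with a tagged protein, and an RNA is called higher when it takes a larger share of the reads than in the input.

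Values are estimated read counts per Ensembl gene ID. The reference table given here pairs 0 of its 59792 genes with these IDs, so genes are described in groups by abundance, and single IDs without names or positions. The 7SL RNA, the transfected gene and markers of the cell line were therefore not checked, and the labels could not be compared with them. The RIP library of variant 2 held 5211354 counts and its input 58815384, which is 11.3 times as many. Counts are given as CPM, the usual measure of counts relative to the total of a library (scaled to 1000000). By counting error, a count of 0 allows up to 3 counts, or 0.576 CPM in the RIP and 0.0510 CPM in the input. All intervals are at 95%, exact for whole counts and approximate for values with a fraction of a read. They and these limits cover counting error only, because amplified reads are not independent molecules.

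The counts of the RIP of variant 2 were spread over far more IDs than those of its input. Of 60676 IDs listed, 51589 (85.0%) had a count in the RIP and 26720 (44.0%) in the deeper input. It took 5526 IDs to account for 50% of the counts in the RIP and 851 in the input. The effective number of IDs, the exponential of the Shannon entropy of the shares, was 19252 in the RIP and 4196 in the input. For variant 1 it was 17338 and 4124, so the RIP libraries lay together and apart from the inputs.

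The contrast was also present at equal depth. After thinning to 500000 counts, the RIP of variant 2 still had a count for 42620 IDs and its input for 16422. At 5000000 counts the numbers were 51290 and 22833. The RIP thus detected more IDs from 500000 counts than the input did from its whole library.

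Very high levels were rarer in the RIP and middle levels more common, while the single most abundant IDs were similar in size. The median over all IDs was 5.76 CPM in the RIP and 0 in the input. The 90th percentile was 42.2 CPM in the RIP and 30.2 CPM in the input. The 99th percentile was 116 CPM in the RIP and 273 CPM in the input. The most abundant ID reached 13249 CPM in the RIP and 13239 CPM in the input.

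Levels in the RIP followed whole-cell abundance only weakly. To see this without sorting on either library compared, IDs were grouped by their CPM in the input of variant 1, which takes no part in the ratio. The inputs had a Spearman's rho of 0.97 where both reached 100 counts (13773 IDs). This is thus close to a grouping on the input of variant 2, and it favours a flatter course in the RIP. Each group excludes its lower limit and includes its upper one. The 90 IDs over 1000 CPM there had a median of 284 CPM in the RIP of variant 2 and 1591 CPM in its input. Medians were 58.0 CPM and 174 CPM for the 2009 IDs from 100 to 1000 CPM. They were similar for the 7705 IDs from 10 to 100 CPM, at 28.6 CPM in the RIP and 31.3 CPM in the input. Below that level the order turned over. For the 7097 IDs from 1 to 10 CPM the RIP median was 12.9 CPM and the input median 2.86 CPM, and for the 7939 IDs from 0.1 to 1 CPM these were 7.44 CPM and 0.102 CPM. The 32304 IDs at 0 had a median of 2.30 CPM in the RIP and 0 in the input.

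**Figure D1:**
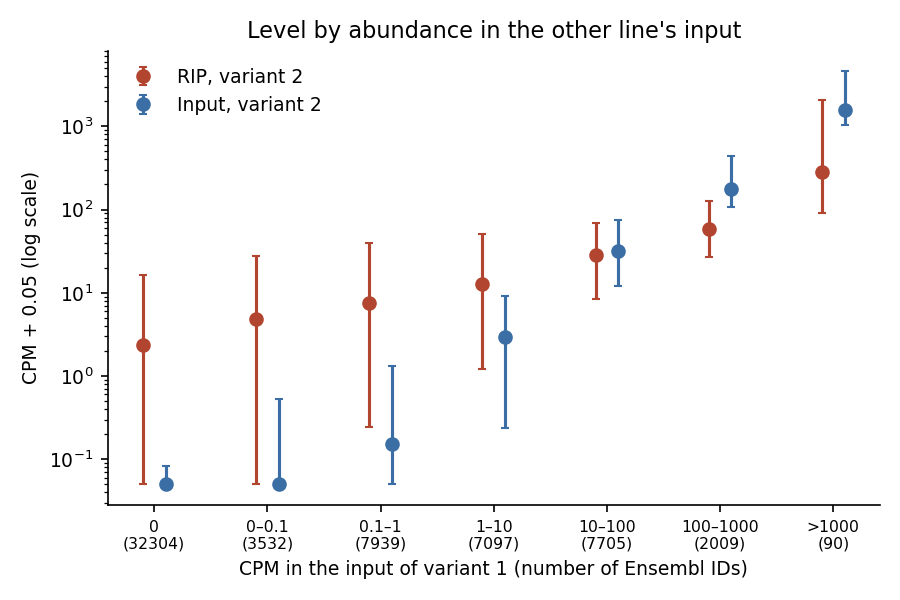
Median level (points) and 10th to 90th percentile of IDs (bars, not an error) in the RIP and the input of variant 2, for IDs grouped by their CPM in the input of variant 1. The vertical axis is CPM + 0.05 on a log scale. RIP medians rise from 2.30 to 284 CPM across the groups while input medians rise from 0 to 1591 CPM.

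Over the 16901 IDs with at least 1 CPM in the input of variant 1, the fitted slope of log2(CPM + 0.5) on that library was 0.42 for the RIP of variant 2 and 1.06 for its input. For the RIP of variant 1 the slope was 0.45, although there the input is its own. These slopes describe IDs, which are not independent replicates.

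The counts of the RIP also lay elsewhere than those of the input. IDs over 100 CPM in the input of variant 1 (the upper 2 of the groups above) took 14.4% and 8.30% of the RIP counts, against 46.6% and 21.1% of the input counts. IDs from 10 to 100 CPM took 27.5% of the RIP counts and 29.1% of the input counts. The group from 1 to 10 CPM took 15.0% of the RIP and 2.75% of the input. IDs at 0 in the input of variant 1 took 19.3% of the RIP counts and 0.135% of the counts in the input of variant 2.

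**Figure D2:**
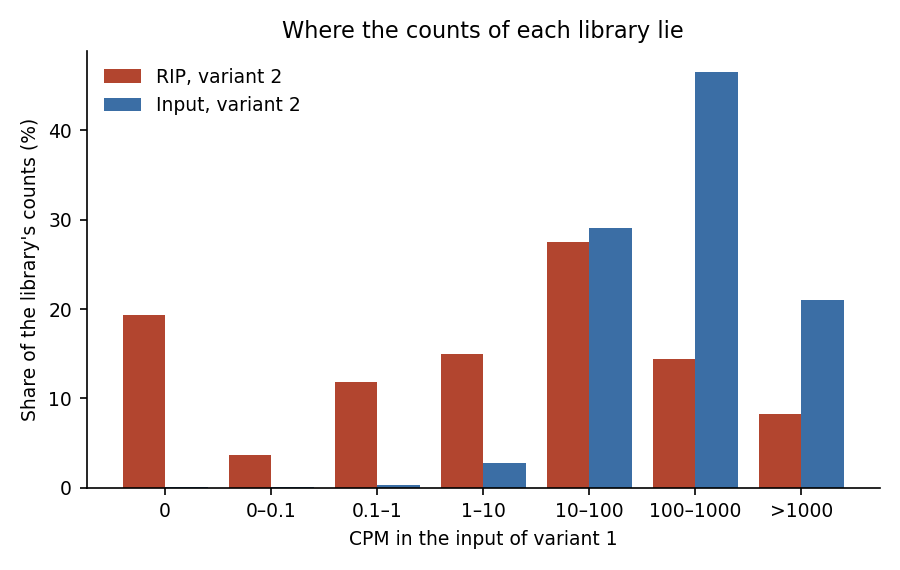
Share of each library's counts (%) taken by IDs grouped by their CPM in the input of variant 1, for the RIP (red) and the input (blue) of variant 2. IDs from 10 to 100 CPM take similar shares (27.5% and 29.1%), those above take more of the input, and those below more of the RIP.

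Genes were then compared ID by ID. The ratio is (CPM + 0.5) in the RIP over (CPM + 0.5) in the input, on a log2 scale, for IDs with at least 5 CPM in the higher of both libraries, and a difference of 2-fold or more counts as higher or lower. Of 32443 IDs compared, 22692 (69.9%) were at least 2-fold higher in the RIP. Another 4079 (12.6%) were at least 2-fold lower, and 5672 (17.5%) lay between. The higher IDs took 56.7% of the RIP counts and 5.31% of the input counts. The lower IDs took 16.02% and 69.0%, and the IDs between 23.4% and 25.2%. For the higher and the lower IDs, the direction of these shares follows from the choice by ratio. Between the inputs of the variants, only 2.57% of 12454 IDs were at least 2-fold higher in variant 2 and 2.18% lower.

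**Figure D3:**
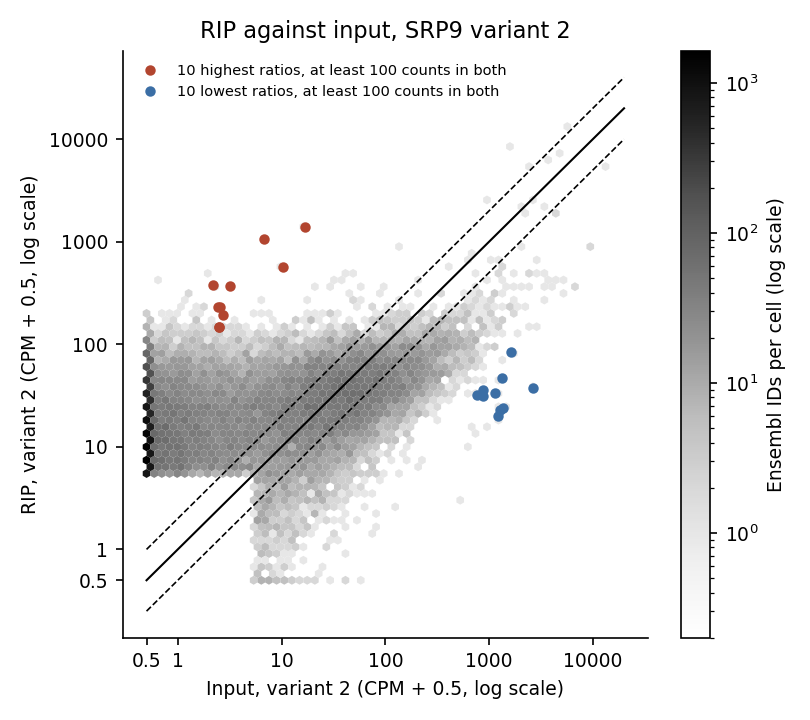
RIP against input of variant 2 for the 32443 IDs compared, as CPM + 0.5 on log axes. Shading gives the number of IDs per cell, the solid line equal levels and the dashed lines 2-fold; red and blue points are the 10 IDs with the highest and the 10 with the lowest ratio among those with at least 100 counts in both libraries. IDs of low input level lie above the lines and those of high input level below.

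The split of directions depended on which IDs were compared and on the scaling. Of the IDs compared, 20549 passed through the RIP alone and could only be higher there, and 775 passed through the input alone. Among the 11119 with at least 5 CPM in both libraries, 2320 were higher, 3414 lower, and 5385 (48.4%) within 2-fold. Another set held the 11866 IDs with at least 5 CPM in the input of variant 1, which is neither library compared. Of these, 20.1% were at least 2-fold higher in the RIP of variant 2 than in its input and 34.2% lower. Their median log2 ratio was -0.38. The inputs were much alike, so this choice too favours lower ratios. In that set the input of variant 2, thinned to the total of the RIP, was also set against the input of variant 1. It was at least 2-fold above for 1.01% and below for 2.81%, well under the shares of the RIP. Here the library that chose the set is also the denominator, which favours lower ratios, so these shares are not on equal terms. The share of higher among the 2-fold differences was 84.8% on library totals, 66.6% with TMM scaling and 64.4% with DESeq2 size factors. TMM scaling moved the log2 ratios of these 11866 IDs by a median of -1.24, giving 6.09% higher and 64.5% lower.

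By abundance group on library totals, the median log2 ratio was 1.84 for IDs from 1 to 10 CPM in the input of variant 1, -0.24 for those from 10 to 100, -1.75 for those from 100 to 1000, and -2.68 above that. With TMM scaling these medians were 0.71, -1.48, -3.01 and -3.94, so none of these 4 changed sign. Grouping on an input so like that of variant 2 favours lower ratios in the upper groups. In the 2-fold count on library totals, 77.9% of IDs compared lay above and 5.64% below in the first of these groups. In the group from 100 to 1000 CPM, 4 of 2009 IDs were higher and 1611 (80.2%) lower. Of the 90 IDs over 1000 CPM, 4 were higher and 78 lower.

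Whole-cell RNA of highest abundance was thus mostly of lower share in the RIP, with exceptions. Of the 1000 most abundant IDs of the input of variant 2, 914 were at least 2-fold lower and 5 at least 2-fold higher in the RIP. This list was chosen on the input, which favours lower ratios. The same 1000 IDs took 53.0% of the input and 16.4% of the RIP. Of the 10 most abundant IDs of the RIP, 3 were also among the 10 of the input and 9 among the 10 of the RIP of variant 1. These 10 IDs took 5.47% of the RIP and 3.96% of the input, from 2066 to 13249 CPM in the RIP, of which 4 were at least 2-fold higher than in the input and 1 lower. Of the 100 and the 1000 most abundant IDs of the RIP, 50 and 377 were in the input's lists of the same length, and 72 and 647 in those of the RIP of variant 1.

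IDs without a count in whole-cell RNA took a large part of the RIP counts. A total of 33956 IDs had 0 counts in the input of variant 2, and 26302 of them (77.5%) had a count in the RIP. They took 23.5% of all RIP counts, 23.0% of the counts in the RIP of variant 1 and 0.203% of those in the input of variant 1. The binomial interval of the 23.5% was 23.47% to 23.54%, which holds the counting error of 1 library and nothing else. Their median in the RIP was 13 counts or 2.49 CPM, so most were at a low level. At least 10 RIP counts were present for 18838 and at least 100 for 3342. Of the 22692 IDs at least 2-fold higher, 12102 (53.3%) were at 0 in the input and 10590 had an input count. IDs at 0 in the input were compared only with at least 5 CPM in the RIP, so they were higher by the filter.

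A count of 0 in the input was less firm than its depth implies. Of the 3342 IDs with at least 100 RIP counts, 1901 were at 0 in the input of variant 1 as well, and 1441 had a count there, with a median of 15 and a highest value of 282 counts (5.59 CPM). By counting error alone, 100 RIP counts against 0 would be at least 376-fold higher. For the 5 IDs with the most RIP counts, from 918 to 1076.5, that bound is at least 3450-fold to at least 4050-fold. Yet 4 of these 5 had 39 to 156.5 counts in the input of variant 1, and against those counts they were 56.9-fold to 267-fold higher. The 5 IDs had 513.5 to 975 counts in the RIP of variant 1.

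Loss from the RIP was rare. Only 1433 IDs had an input count and 0 counts in the RIP of variant 2, and together they took 0.130% of the input counts. Of the 11894 IDs with at least 5 CPM in the input, 42 (0.353%) were at 0 in the RIP, and 17 of these were at 0 in the RIP of variant 1 too. The 5 most abundant of them had 1270 to 3443.7 counts in the input of variant 2, or 21.6 to 58.6 CPM, and were at least 37.5-fold to at least 102-fold lower in the RIP by a limit of 3 counts. They lay at 21.5 to 50.6 CPM in the input of variant 1. Of these 5, 2 were at 0 in the RIP of variant 1 and 3 had up to 30 counts there, so a 0 in 1 RIP library was not always repeated in the other.

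Single IDs were ranked among the 9269 with at least 100 counts in both libraries and values no other ID matched in all 4 libraries. Their folds below are plain ratios of CPM, with the interval from an exact binomial interval of the counts. As the libraries differ in depth, 100 counts are a higher CPM in the RIP than in the input. This floor therefore limits higher and lower folds unequally. More extreme log2 ratios lay outside the ranking, up to 9.51 among the 100 most abundant IDs of the RIP. Among the 1000 most abundant of the input they went down to -7.34. Within the ranking, ENSG00000141837 had the highest ratio. It had 1949 counts in the RIP of variant 2 (374 CPM, exact Poisson interval 358 to 391) and 100 counts in its input (1.70 CPM, 1.38 to 2.07), and was 220-fold higher (180 to 272). In the libraries of variant 1 it had 307 CPM in the RIP and 8.21 CPM in the input. The RIP libraries lay close, while the inputs differed by 4.83 times, so that the fold was 37.4 with variant 1 and 45.6 for the RIP of variant 2 over the input of variant 1.

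ENSG00000210117 had the next highest ratio. It had 5471.41 counts in the RIP of variant 2 (1050 CPM, 1022 to 1078) and 372.33 in its input (6.33 CPM, 5.70 to 7.01), which is 166-fold higher (149 to 185). With variant 1 it had 1140 CPM in the RIP and 10.1 CPM in the input, a fold of 113. The RIP values of both variants lay far above both inputs.

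The lowest ratio of the ranking was that of ENSG00000199994, among the abundant RNAs of the cell. It had 191.18 counts in the RIP of variant 2 (36.7 CPM, 31.7 to 42.3) and 157091.08 in its input (2671 CPM, 2658 to 2684), which is 72.8-fold lower (63.2 to 84.3). With variant 1 it had 27.3 CPM and 2615 CPM, 95.8-fold lower. ENSG00000206652 had 101.4 counts in the RIP of variant 2 (19.5 CPM, 15.9 to 23.6) and 71995.14 in its input (1224 CPM, 1215 to 1233), which is 62.9-fold lower (51.8 to 77.2). With variant 1 it had 21.4 CPM and 1124 CPM, 52.6-fold lower. Both IDs were low in both RIP libraries and high in both inputs.

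The 10 highest IDs of this ranking were 57.9-fold to 220-fold higher, and the 10 lowest 19.5-fold to 72.8-fold lower. The high ones reached 146 to 1402 CPM in the RIP from 1.70 to 16.4 CPM in the input. The low ones lay at 19.5 to 83.5 CPM in the RIP and 765 to 2671 CPM in the input. All 20 went the same way with variant 1, by 15.4-fold to 197-fold and by 7.18-fold to 95.8-fold. Of all IDs compared for both variants with a count in both inputs, 87.2% had the same sign. The agreement of IDs picked for extreme ratios thus says little about these 20. ENSG00000199415 and ENSG00000199480, both among the 10 lowest, had the same 61.77 counts in the RIP of variant 1. The 20 may therefore not all be separate. Of the 10 lowest, 9 had a fraction of a read in their values, against 4 of the 10 highest. Fractions can arise where 1 read is divided between genes or positions, but their origin in these files was not tested.

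Values with a fraction of a read made up a smaller part of the RIP. Such IDs took 32.5% of the counts in the RIP of variant 2 and 48.0% in its input. At like counts the direction depended on the range. From 100 to under 1000 counts, 27.3% of 14943 IDs were fractional in the RIP and 38.0% of 6885 in the input, and from 10 to under 30 counts the shares were 16.4% and 22.0%. At 1000 counts and over it was the reverse, with 59.7% of 154 IDs in the RIP and 35.8% of 8196 in the input. Among the IDs with at least 5 CPM in the input of variant 1, the 4309 with a fraction there were lower in the RIP of variant 2 for 37.8% and higher for 18.6%. The 7557 with whole values were lower for 32.1% and higher for 20.97%. IDs with a fraction thus had slightly more lower ratios.

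Levels in both RIP libraries went together also within groups of like whole-cell abundance. Among IDs from 1 to 10 CPM in the input of variant 1, Spearman's rho of the RIP of variant 2 was 0.79 with the RIP of variant 1 and 0.10 with its own input (7097 IDs). Over 0.1 and up to 1 CPM it was 0.78 and -0.01 (7939 IDs), and from 10 to 100 CPM 0.74 and 0.29 (7705 IDs). Over 100 and up to 1000 CPM it was 0.73 and 0.42 (2009 IDs), and above that 0.85 and 0.52 (90 IDs). At 0 counts in both inputs, the rho between the RIP libraries was 0.64 (28425 IDs). These are descriptions across IDs, which share gene length, annotation and the protocol in both RIP libraries. Grouping on the input of variant 1 narrows the range of the other input, which lowers the rho with it, and low counts limit it further in the lower groups. The values within groups therefore do not compare the RIP libraries' likeness on equal terms with that of RIP and input.

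Where both inputs reached 100 counts (13773 IDs), the RIP of variant 2 had a rho of 0.52 with its own input, 0.52 with the input of variant 1 and 0.81 with the RIP of variant 1. The inputs had 0.97 between them. With inputs this alike, these values cannot show whether the RIP held more of its own input's ranking than of the other's.

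The ratio to the own input was set beside that of variant 1, whose pair shares no library with that of variant 2. Of IDs at least 2-fold higher with variant 2, 71.7% were also so with variant 1, and 75.9% the other way round. Of IDs at least 2-fold lower with variant 2, 74.4% were also lower with variant 1, and 70.2% the other way round. Among the 31104 IDs compared for variant 1, 68.9% were higher and 13.9% lower. The shares called with both variants also have in their base IDs that were not compared for the other variant. They are thus not on equal terms with 68.9% and 13.9%, and say little about these IDs. Over the 17020 IDs compared for both variants that had a count in both inputs, the sign was the same for 87.2%. Opposite 2-fold differences were few: 79 IDs were higher with variant 2 and lower with variant 1, and 30 the reverse. The variants are different constructs, not replicates, and a difference between them cannot be told apart from one between the libraries.

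**Figure D4:**
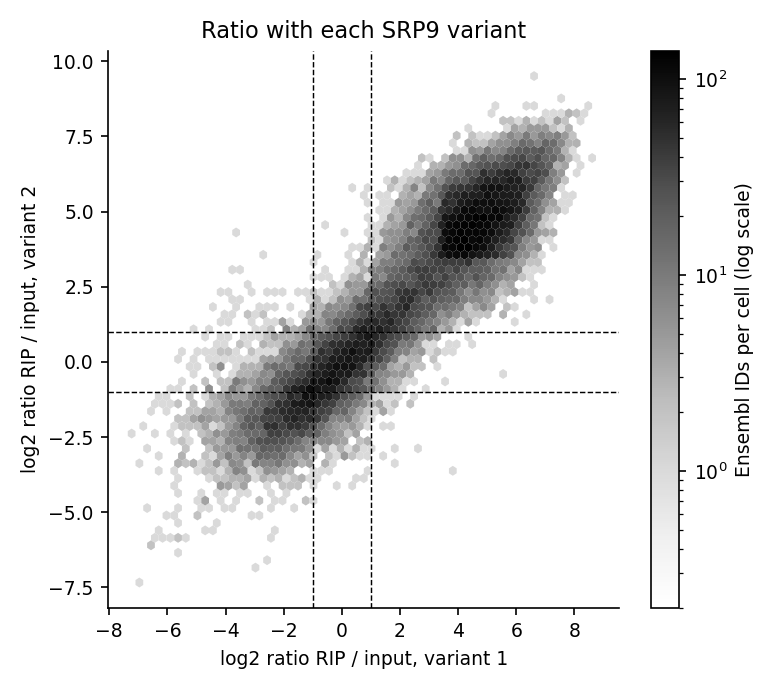
log2 ratio of RIP over input with variant 2 (vertical) against variant 1 (horizontal) for the 26678 IDs compared for both; shading gives the number of IDs per cell and dashed lines mark 2-fold. Most IDs lie in the upper right or lower left; 79 lie at least 2-fold up with variant 2 and down with variant 1, and 30 the reverse.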

How the data were processed

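The values the authors deposited are estimated counts, fractions included, for each Ensembl gene ID. Their column names and differing totals show no scaling. HISAT2 2.1.0, featureCounts, Subread 2.0.0 and GRCh38.p13 appear in the submitters' processing notes. How multi-mapping reads and fragments were counted, the strand setting and the annotation: not given in the sources used here. Counts were scaled to CPM of library totals. Log2 ratios had a pseudocount of 0.5 CPM, among IDs with at least 5 CPM in the higher library. Counts were rounded to whole numbers for thinning and for the TMM (edgeR 4.0.16) and DESeq2 1.42.0 scaling, tried as alternatives (Python 3.11.15, R 4.3.3). No model was fitted. The calls were checked on libraries simulated from the input of variant 2, with a small number of well-counted IDs changed. That check does not cover IDs of low input or differences as widespread as those of the RIP. Single IDs were the highest and lowest ratios among IDs with at least 100 counts in both libraries and unshared values; as IDs lack names, 2 per direction are given. The comparison and the rules were chosen with earlier results of these data known. The 24 gene lists prepared by symbol were not computed, as no ID matched.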

Additional observations from a re-analysis of the deposited data

Results flagged for a closer look

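For a small number of IDs the variants had opposite ratios to their inputs, by at least 2-fold each. Of the IDs compared for both, 79 were higher in the RIP with variant 2 and lower with variant 1, and 30 were lower with variant 2 and higher with variant 1. With TMM scaling the numbers were 59 and 26, and with DESeq2 size factors 65 and 23. The difference was not tested, because each ratio rests on 1 library a side.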

How the results depend on the processing

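No paired analysis was possible because each group has 1 library. The IDs at least 2-fold higher in the RIP of variant 2 numbered 22692 on library totals, 15976 with TMM scaling, 8572 with at least 20 CPM in the higher library, 37167 without a filter and 2388 among IDs with at least 5 CPM in the input of variant 1. The IDs at least 2-fold lower numbered 4079, and 7996 with TMM scaling, 8440 with DESeq2 size factors and 2021 among IDs with whole counts in both libraries, which are fewer IDs. The median log2 ratio was 3.59 over the IDs compared. Without a pseudocount and with every value under 3 counts raised to 3, it was 4.87. Among IDs with at least 5 CPM in the input of variant 1, a set chosen on a library outside the comparison, it was -0.38. That library was much like the input of variant 2, so this choice favours lower ratios. Pseudocounts of 0.1 and 2 CPM, a thinned input, the other input as denominator, and 1 ID per set of shared values kept both counts within 1.5 times. The IDs with a RIP count and none in the input numbered 26302, and 18838 with at least 10 RIP counts. The share of IDs with the same sign for both variants was 87.2%, 90.5% with TMM scaling and 90.8% with DESeq2 size factors. The filter fixed part of the 87.2%, as IDs that passed through the RIP alone could only have a positive ratio. The 4 named IDs kept their direction in all 24 recalculations. The other input, the set on the input of variant 1, the shared values, and scaling for the sign were alternatives added after seeing the data. Alternatives for gene lists were not run. Of whole counts under 200, 59.5% were even in the input of variant 2 and 50.8% in its RIP. If a fragment was counted as 2 reads, the lower bounds are too high and the intervals too narrow.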
